A study of Medicago truncatula with 4 samples.

Results

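The genes described here were the NAC and LOB-domain (LBD) transcription factors of *M. truncatula*, measured by RNA-seq in *MtWOX9-1*-overexpressing and wildtype calli. Members were the genes that the deposited annotation names or describes as NAC, NAM, CUC or LBD. This rule found 10 of 52709 genes, 5 in the NAC family and 5 in the LBD family. The deposited annotation gives a symbol to 3772 genes only, so the members are the curated genes of both families and not all of them. RNA came from calli grown from leaf explants of the embryogenic line R108, collected on day 35 of culture. Overexpressing calli came from R108 plants with an insertion of pMDC32, a vector with a constitutive promoter of cauliflower mosaic virus, that carries the *MtWOX9-1* coding sequence, and wildtype calli came from R108 plants. For both kinds, the synthetic auxin 2,4-D (18 μM) and the cytokinin BAP (2.22 μM) were in the medium for the first 30 days and were left out for the last 5 days. There were 2 biological replicates of each kind, and the number of transgenic lines behind them was not given in the sources used here.

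NAC proteins are plant transcription factors named after the petunia gene NAM and the *Arabidopsis* genes ATAF and CUC. They share a DNA-binding domain at the N-terminus, and their members act in meristem boundaries, root cap formation, vessel differentiation, senescence and stress responses. LBD proteins are another plant-specific family, named after LATERAL ORGAN BOUNDARIES of *Arabidopsis*. In *Arabidopsis*, LBD16 and LBD18 act downstream of auxin response factors in lateral root formation, and LBD16, LBD18 and related members promote callus formation on auxin-rich medium.

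The libraries held between 6399209 and 6666866 counts in overexpressing calli and between 5241334 and 6065277 counts in wildtype calli. *MtWOX9-1* (MtrunA17Chr2g0283141, listed as *MtWOX9b* in the deposited annotation) had 7692 and 7634 counts in the overexpressing libraries and 2 and 18 counts in the wildtype libraries, which follows the labels. Counts of the introduced and the native copy are not separated. Callus has no defining marker among the lists used here. In bulk calli, more cells of a type and more RNA per cell cannot be told apart.

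All 10 members passed the filter on low values (10 counts, summed over libraries). Fold changes were tested two-sided by the quasi-likelihood method of edgeR, and p-values were adjusted (Benjamini-Hochberg) over the 24630 genes that passed, with a threshold of 0.05. No gene named CUC or NAM by its symbol was among the members. Of the NAC genes, 3 rose (*MtFEZ*, *AtFEZ-like* and *MtNACsa*), 1 fell (*MtNAC969*) and 1 did not pass the test (*MtNAC1*). Of the LBD genes, 2 rose (*MtLBD18* and *MtLBD4*), 2 fell (*MtLBD16* and *MtLBD1*) and 1 did not pass the test (*MtLBD11*). With DESeq2, *MtFEZ* (adjusted p = 0.064), *MtLBD16* (adjusted p = 0.21) and *MtLBD1* (adjusted p = 0.16) were not called. Over all genes tested, 20.3% were called higher and 18.9% lower in overexpressing calli, 39.2% in all. Among genes with a symbol, to which all members belong, 55.8% of 1729 tested genes were called. The median log2 fold change was 1.04 over the 5 NAC genes and -0.58 over the 5 LBD genes, beside 0.04 over all genes tested. The libraries of the 2 groups did not overlap for 9 of the 10 members, against 75.1% of all genes tested. Among the 1729 tested genes with a symbol, they did not overlap for 739 that were higher and 681 that were lower in overexpressing calli. Both families thus held genes that moved in opposite directions, by log2 fold changes between -2.14 and 5.45.

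**Figure D1:**
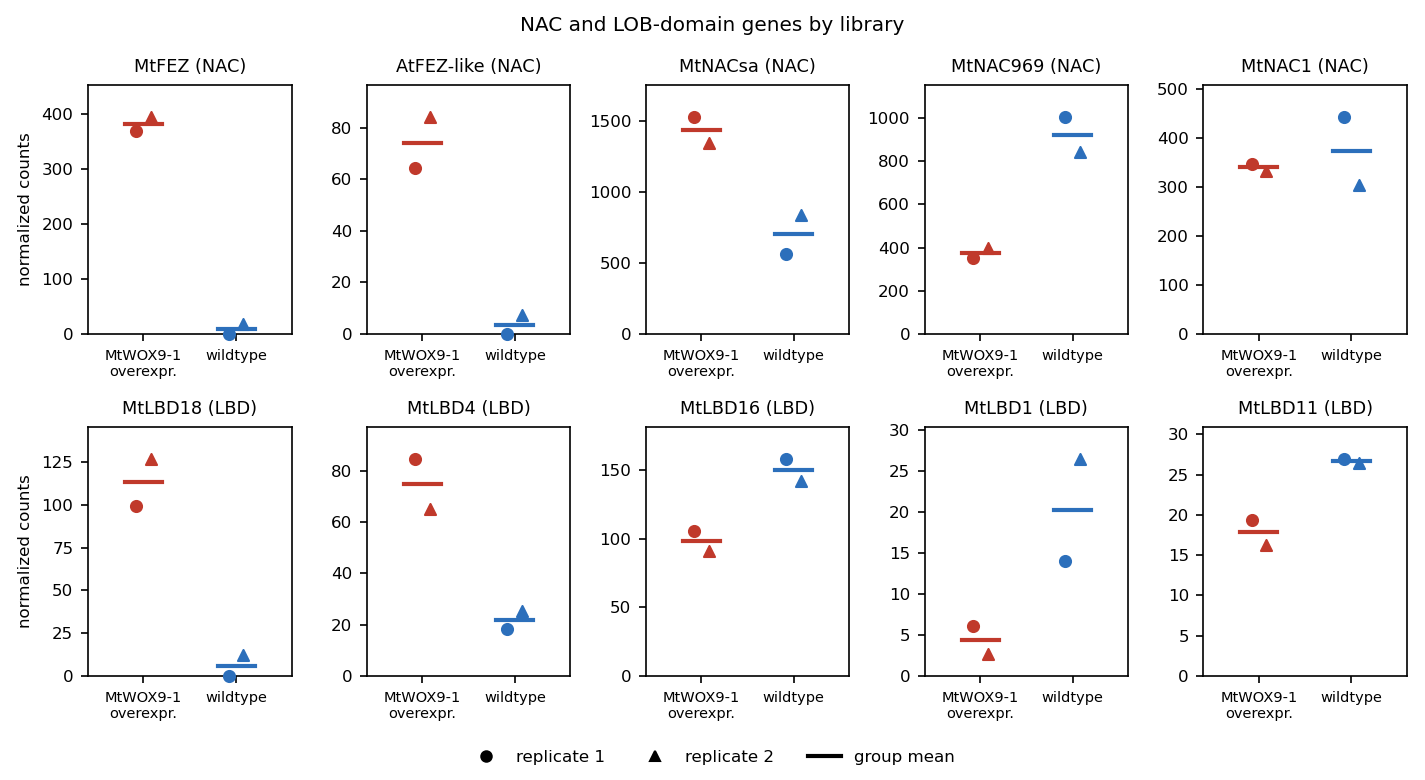
Normalized counts (counts scaled by the TMM method, y axis, linear from 0, a scale of its own for each gene) of the 5 NAC genes (top) and the 5 LBD genes (bottom) in *MtWOX9-1*-overexpressing and wildtype calli. Circles are replicate 1, triangles are replicate 2 and lines are group means (n = 2); the groups overlap for *MtNAC1* only, and *MtFEZ*, *AtFEZ-like* and *MtLBD18* lie at 0 in wildtype replicate 1.

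*MtFEZ* (MtrunA17Chr8g0361731, Medtr8g467490, on chromosome 8 by its ID) and *AtFEZ-like* (MtrunA17Chr5g0417001, Medtr5g040420, on chromosome 5) are the NAC genes that the annotation ties to root cap formation. In *Arabidopsis*, FEZ promotes the divisions of stem cells that renew the root cap. *MtFEZ* had 419 and 435 counts in overexpressing calli, against 0 and 15 counts in wildtype calli. *AtFEZ-like* had 73 and 93 counts in overexpressing calli, against 0 and 6 counts in wildtype calli. Both genes were thus well counted in each overexpressing library, at 0 in wildtype replicate 1 and at a few counts in wildtype replicate 2. With 0 and 6 wildtype counts, *AtFEZ-like* passed the filter on low values only through the overexpressing libraries. With a filter at 1 count, which its wildtype counts alone reach, *AtFEZ-like* was called higher as well (edgeR adjusted p = 0.025). At 3 counts of the library total, a count of 0 in wildtype replicate 1 allows a level of up to 0.495 CPM (counts per 1000000 counts of the library). For comparison, *MtFEZ* had 62.8 and 68.0 CPM in the overexpressing libraries.

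In normalized counts, *MtFEZ* averaged 381 ± 17.6 in overexpressing calli and 9.02 ± 12.8 in wildtype calli (SD, n = 2 each). This was a log2 fold change of 5.45 ± 0.71 (SE, edgeR adjusted p = 0.0062), and the lower overexpressing library was 20.4-fold above the higher wildtype library. DESeq2 gave 5.42 with an adjusted p of 0.064, so this gene was not called by that tool. *AtFEZ-like* averaged 74.2 ± 14.1 normalized counts in overexpressing calli and 3.61 ± 5.11 in wildtype calli (SD, n = 2 each). *AtFEZ-like* thus rose by 4.38 ± 0.76 on the log2 scale (SE, edgeR adjusted p = 0.012), with 8.90-fold between the nearest libraries of the groups, and it was called by DESeq2 as well. The size of both changes rested on wildtype replicate 2. Without wildtype replicate 1 the log2 fold changes were 4.39 for *MtFEZ* and 3.34 for *AtFEZ-like*. Without wildtype replicate 2 no wildtype count is left, and against 3 counts in wildtype replicate 1 the mean of the overexpressing libraries was at least 118-fold higher for *MtFEZ* and at least 23.0-fold higher for *AtFEZ-like*.

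Another NAC gene tied to the root cap, *MtSMB* (MtrunA17Chr2g0309331, on chromosome 2), is described as SOMBRERO of the NAM family and lies outside the rule by its wording. It was chosen after its values were seen. In *Arabidopsis*, SOMBRERO promotes the maturation of root cap cells and restrains FEZ. *MtSMB* had 1478 and 1684 counts in overexpressing calli, against 49 and 129 counts in wildtype calli. It rose by 3.78 ± 0.49 on the log2 scale (SE, edgeR adjusted p = 0.0060), and by 3.18 to 4.74 in the fits that omit 1 library. Like *MtFEZ* and *AtFEZ-like*, it was higher in wildtype replicate 2 than in wildtype replicate 1, here by 2.94-fold in normalized counts.

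Genes named for the root cap were higher together with these NAC genes. The annotation lists 8 genes under the name Root Cap, and all 8 were called higher in overexpressing calli. For comparison, 20.3% of all genes tested and 504 of the 1729 tested genes with a symbol were called higher. Their summed level was 1453 and 2280 CPM in the overexpressing libraries, against 4.95 and 25.9 CPM in the wildtype libraries, and 1 of them, *MtRC4*, was at 0 in both wildtype libraries. Of these 8 genes, 4 reached the filter on low values only through the overexpressing libraries, so the count of 8 is no more than a description. Which cells of the callus held these transcripts was not measured, and their part in the counts of *MtFEZ*, *AtFEZ-like* and *MtSMB* was not tested. Leghemoglobins, which mark nodules, summed to 2.70 and 0 CPM in overexpressing calli and to 0.165 and 1.72 CPM in wildtype calli, with 9 of the 11 genes at 0 in all libraries. Plastid genes summed to 3360 and 2994 CPM in overexpressing calli and to 2418 and 2654 CPM in wildtype calli.

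**Figure D2:**
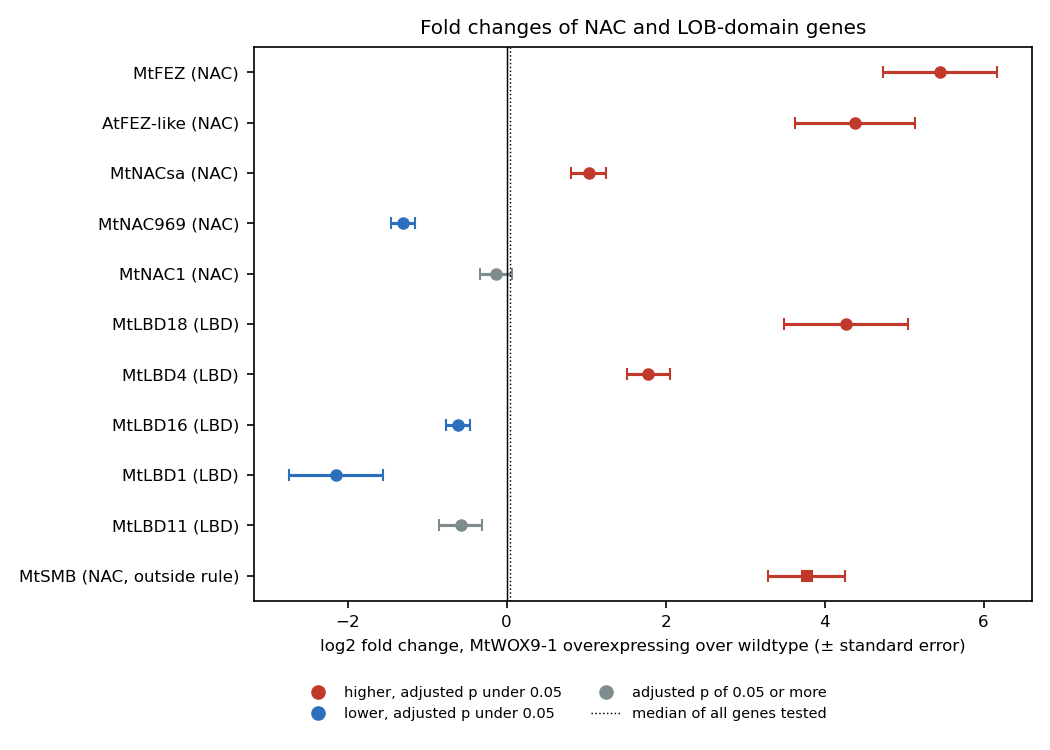
Log2 fold change of *MtWOX9-1*-overexpressing over wildtype calli (x axis) with its standard error (bars) for the 10 members and for *MtSMB* (square), from edgeR's quasi-likelihood test on 2 libraries a group. The points run from -2.14 for *MtLBD1* to 5.45 for *MtFEZ*, and the dotted line marks the median of 0.04 over all genes tested.

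The other NAC genes had at least 252 counts in every library, and their changes were smaller. *MtNACsa* (MtrunA17Chr3g0130731, Medtr3g096920, on chromosome 3) is named after a NAC factor that in *Medicago falcata* is anchored to membranes by a lipid and enters the nucleus under drought. It had 1732 and 1486 counts in overexpressing calli, against 523 and 696 counts in wildtype calli. Normalized counts averaged 1435 ± 127 in overexpressing calli and 700.3 ± 194 in wildtype calli (SD, n = 2 each), with the groups apart by 1.61-fold at their nearest libraries. *MtNACsa* rose by 1.04 ± 0.22 on the log2 scale (SE, edgeR adjusted p = 0.021). The call was lost without overexpressing replicate 1 (edgeR adjusted p = 0.080) and without overexpressing replicate 2 (edgeR adjusted p = 0.052), with log2 fold changes of 0.94 and 1.12.

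*MtNAC969* (MtrunA17Chr4g0042561, Medtr4g081870, on chromosome 4) has been tied in *M. truncatula* to the root response to salt and to nodule senescence. It had 397 and 439 counts in overexpressing calli, against 932 and 698 counts in wildtype calli. Normalized counts averaged 373 ± 33.9 in overexpressing calli and 922 ± 116 in wildtype calli (SD, n = 2 each), so both overexpressing libraries lay below both wildtype libraries. *MtNAC969* was 2.47-fold lower in overexpressing calli, or -1.30 ± 0.15 on the log2 scale (SE, edgeR adjusted p = 0.0047). It was called lower under each of the 12 alternatives tried, with log2 fold changes between -1.42 and -1.16.

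*MtNAC1* (MtrunA17Chr2g0312321, Medtr2g064470, on chromosome 2) shares its name with *Arabidopsis* NAC1, which transmits auxin signals in lateral root formation. It had 394 and 368 counts in overexpressing calli, against 411 and 252 counts in wildtype calli. The wildtype libraries lay on both sides of the overexpressing libraries, with normalized counts of 347 and 333 in overexpressing calli, against 443 and 303 in wildtype calli. The difference was -0.13 ± 0.20 on the log2 scale (SE, edgeR adjusted p = 0.63), and its sign turned with library size as the only scaling and without wildtype replicate 1. A difference was therefore not detectable beside the spread of the wildtype replicates.

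Among the LBD genes, *MtLBD18* (MtrunA17Chr8g0351701, Medtr8g036085, on chromosome 8) changed most. *Arabidopsis* LBD18 acts in lateral root initiation and emergence. *MtLBD18* had 113 and 140 counts in overexpressing calli, against 0 and 10 counts in wildtype calli. The pattern over the libraries was like that of the FEZ genes, with 0 counts in wildtype replicate 1 and few in wildtype replicate 2. Normalized counts averaged 113 ± 19.3 in overexpressing calli and 6.02 ± 8.51 in wildtype calli (SD, n = 2 each), and 8.27-fold lay between the nearest libraries of the groups. *MtLBD18* rose by 4.27 ± 0.78 on the log2 scale (SE, edgeR adjusted p = 0.014). The value was 3.22 without wildtype replicate 1, and against 3 counts in wildtype replicate 1 alone the mean of the overexpressing libraries was at least 35.0-fold higher. Without overexpressing replicate 2 the rise was 4.08 and the call was lost (edgeR adjusted p = 0.052).

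*MtLBD4* (MtrunA17Chr4g0043421, Medtr4g083680, on chromosome 4) carries the description of LOB domain protein 11 in the annotation although its symbol is LBD4. *Arabidopsis* LBD4 is a vascular gene of the border between phloem and procambium. *MtLBD4* had 96 and 72 counts in overexpressing calli, against 17 and 21 counts in wildtype calli. Its normalized counts averaged 74.9 ± 13.7 in overexpressing calli and 21.8 ± 4.92 in wildtype calli (SD, n = 2 each), with 2.58-fold between the nearest libraries. The rise was 1.78 ± 0.27 on the log2 scale (SE, edgeR adjusted p = 0.0088), and *MtLBD4* was called higher under each of the 12 alternatives tried, with log2 fold changes between 1.56 and 2.03.

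*MtLBD16* (MtrunA17Chr7g0260971, Medtr7g096530, on chromosome 7) acts in nodule and lateral root initiation in *M. truncatula*. It had 120 and 101 counts in overexpressing calli, against 147 and 118 counts in wildtype calli, so it was counted at a similar order in each library. Normalized counts averaged 98.5 ± 10.1 in overexpressing calli and 150 ± 11.5 in wildtype calli (SD, n = 2 each), and the nearest libraries of the groups were 1.34-fold apart. *MtLBD16* was 1.52-fold lower in overexpressing calli, or -0.61 ± 0.15 on the log2 scale (SE, edgeR adjusted p = 0.033). This call was lost without any 1 of the libraries: the edgeR adjusted p was 0.072 without overexpressing replicate 1, 0.12 without overexpressing replicate 2, 0.14 without wildtype replicate 1 and 0.062 without wildtype replicate 2. It was 0.21 with DESeq2 and 0.056 with library size as the only scaling. *MtLBD16* and *MtLBD18*, whose *Arabidopsis* namesakes act in the same auxin pathway, were thus called in opposite directions.

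*MtLBD1* (MtrunA17Chr1g0207471, Medtr1g106420, on chromosome 1) has been tied to root architecture under salt stress in *M. truncatula*. It was the least counted member, with 7 and 3 counts in overexpressing calli, against 13 and 22 counts in wildtype calli. Both wildtype libraries lay above both overexpressing libraries, by 2.27-fold at the nearest pair in normalized counts. *MtLBD1* fell by 2.14 ± 0.59 on the log2 scale (SE, edgeR adjusted p = 0.042). Its log2 fold change was -2.83 and -1.69 without overexpressing replicates 1 and 2, and -2.54 and -1.62 without wildtype replicates 1 and 2. The call was lost without overexpressing replicate 1 (edgeR adjusted p = 0.070), overexpressing replicate 2 (0.14) and wildtype replicate 2 (0.13), and with DESeq2 (0.16).

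*MtLBD11* (MtrunA17Chr4g0030001, Medtr4g060950, on chromosome 4) had 22 and 18 counts in overexpressing calli, against 25 and 22 counts in wildtype calli. *Arabidopsis* LBD11 promotes cambium activity. The normalized counts of the groups did not overlap, with 19.4 and 16.3 in overexpressing calli and 26.9 and 26.5 in wildtype calli. The difference was -0.58 ± 0.27 on the log2 scale (SE, edgeR adjusted p = 0.16), which did not pass the test in any of the 12 alternatives. This value lay close to that of *MtLBD16*, whose standard error was smaller at its higher counts.

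**Figure D3:**
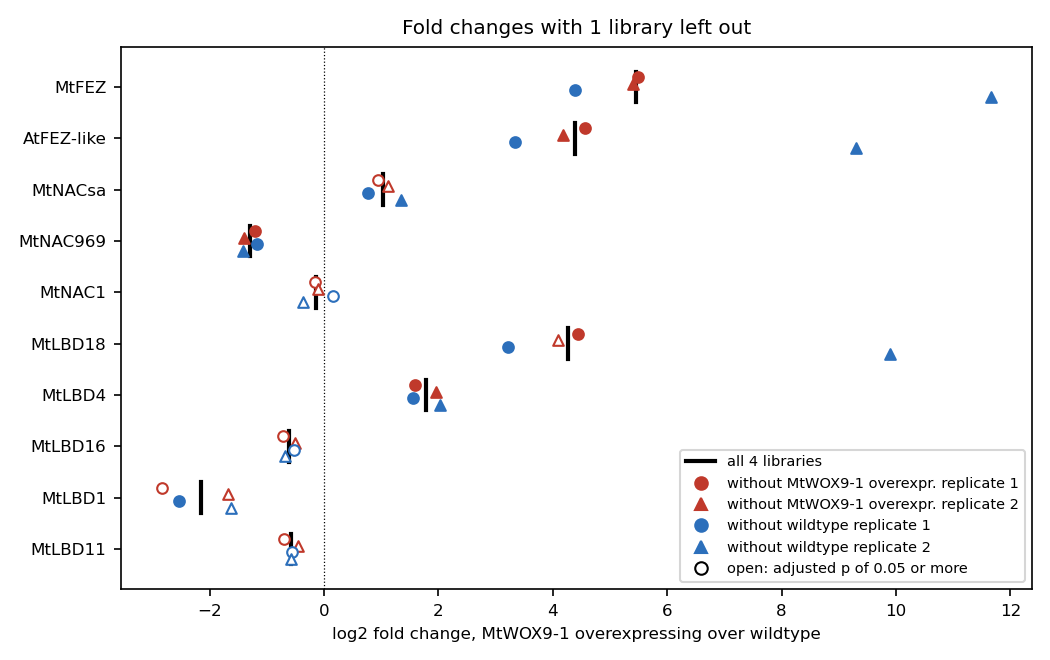
Log2 fold change of *MtWOX9-1*-overexpressing over wildtype calli (x axis) for each member with all 4 libraries (black bars) and with 1 library left out (symbols), filled where the adjusted p of edgeR's quasi-likelihood test was under 0.05. Without wildtype replicate 2, values for *MtFEZ*, *AtFEZ-like* and *MtLBD18* stand far to the right because no wildtype count is left. These values depend on the prior count.

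The 10 members lie on 7 chromosomes by their IDs. Of the 40 genes within 2 positions of a member in the order of the IDs, 25 were tested, 9 of them called higher and 2 lower, and 0 held the same count as the member in a library where it had over 3 counts. Over all genes tested, 20.3% were called higher and 18.9% lower. The gene before *MtFEZ* had a log2 fold change of 0.70 (edgeR adjusted p = 0.030), and the gene before *MtLBD18* had 1.14 (edgeR adjusted p = 0.0037). The genes that follow *MtFEZ* and *MtLBD18* had 0 counts in each library. The gene that follows *AtFEZ-like* had 7 and 12 counts in overexpressing calli, against 0 and 21 counts in wildtype calli (log2 fold change -0.53, edgeR adjusted p = 0.78). Like *AtFEZ-like*, it was at 0 in wildtype replicate 1. How strand and multiply mapped reads were handled is not given in the sources used here, so reads of an overlapping gene cannot be told apart from those of a member.

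Gene lists that work beside these families were set next to them. The counts called in each list stand beside 20.3% of all genes tested called higher and 18.9% called lower. Of the 1729 tested genes with a symbol, 504 were called higher and 461 lower, 55.8% in all. The auxin response factors are a family of which some members act upstream of LBD16 and LBD18 in *Arabidopsis*, and the keywords did not separate those members. Of 25 genes of this family, 14 were tested and 8 were called higher, while the other 6 did not pass the test. The median log2 fold change of the tested genes was 0.75. *MtARF19a*, listed together with *MtARF6* at 1 gene and chosen after its values were seen, had 868 and 686 counts in overexpressing calli, against 345 and 326 counts in wildtype calli (log2 fold change 0.86, edgeR adjusted p = 0.012). A separate gene listed as *MtARF19* had 0 counts in all 4 libraries. The gene listed under both *MtARF4* and *MtARF7* had 0 and 6 counts in overexpressing calli and 0 in both wildtype libraries, and was not tested. Some KNOX homeobox genes are meristem genes with which CUC-type NAC factors interact. The KNOX keywords did not separate these from other classes of KNOX genes, and matched 12 genes. Of the 12, 1 gene, *MtKTN*, is described as a protein that binds the homeobox protein Knotted. Of the 11 genes tested, 4 were called higher (*MtKTN* included) and 6 lower, with a median of -1.51. Without *MtKTN* the median of the 10 tested genes was -1.93, or -1.65 with genes at 0 in a group at their bounds. All 4 genes called higher had fewer than 10 counts over the wildtype libraries and passed the filter only through the overexpressing ones, *MtKNOX8* and *MtKNOX1* with 5 and 5 counts each, so this count is no more than a description. The reverse held for 1 of the 6 called lower, *MtFCL1*, with 0 counts in both overexpressing libraries, against 6 and 10 counts in wildtype calli. The nuclear factor Y keywords matched 35 genes, 29 described as subunits of that factor and 6 as the related NC2 alpha. Of the subunits, 19 were tested, 10 were called higher and 2 lower, with a median of 1.97, and 4 of those called higher passed the filter only through the overexpressing libraries. The 4 tested NC2 alpha genes did not pass the test, and with them the median was 0.55. Of 12 genes described as WUSCHEL-related, *MtWOX9-1* included, 7 were tested, 2 were called higher and 4 lower, with a median of -1.14. The 2 called higher were *MtWOX9-1*, overexpressed by design, and *MtWOX11*, with 44 and 17 counts in overexpressing calli and 0 in both wildtype libraries. *MtWOX11* thus passed the filter only through the overexpressing libraries. The reverse held for 1 of the 4 called lower, *MtWUS*, with 0 counts in both overexpressing libraries and 6 and 12 in wildtype calli. Root Cap genes had the highest median of these lists, 7.14, or 6.87 with *MtRC4* at its lower bound. The values of *MtFEZ*, *AtFEZ-like* and *MtLBD18* lay below that median and above the medians of the other lists.

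**Figure D4:**
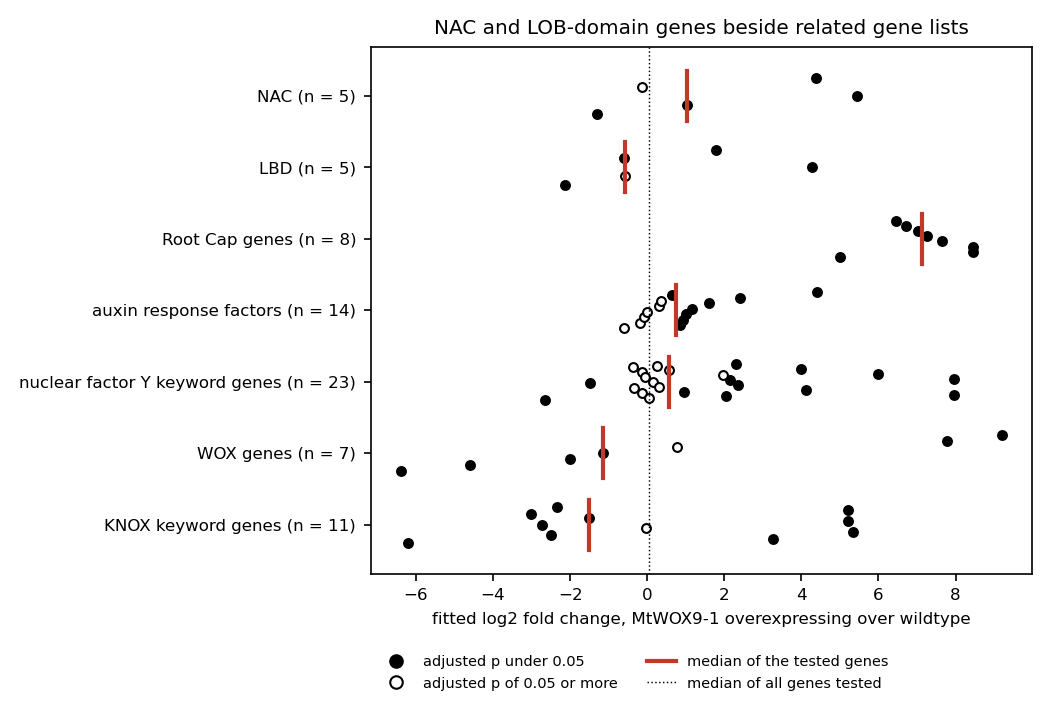
Fitted log2 fold change of *MtWOX9-1*-overexpressing over wildtype calli (x axis) of each tested gene of the NAC and LBD families and of 5 related lists found by keywords (that for nuclear factor Y includes 4 NC2 alpha genes, that for KNOX includes *MtKTN*), with filled points for an adjusted p under 0.05 (edgeR's quasi-likelihood test). Red bars are list medians, 1.04 for NAC and -0.58 for LBD genes, and the dotted line is the median of 0.04 over all genes tested; fitted values of genes at 0 in a group depend on the prior count.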

How the data were processed

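For 4 libraries of polyA RNA, the authors deposited unnormalized gene counts in whole numbers (NEBNext Ultra II kit) on the gene IDs of MtrunA17r5.0-ANR. The submitters' processing notes name Trimmomatic, HISAT2, StringTie and DESeq; their settings and the counting step are not given in the sources used here. A deposited annotated table holds a normalized signal, which equals the count times 1 constant per library, and the symbols and descriptions used here. It also holds the authors' fold changes, standard errors and p-values, which were not used. Each column name equals 1 sample's description, and the number of unused per-sample columns was 0.

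Library totals lay between 5241334 and 6666866 counts. Replicates of both groups differed beyond sampling noise (chi-square per degree of freedom 7.71 and 6.80). The filter was a summed count of 10. Scaling (TMM) and the quasi-likelihood test, with condition as the single term, came from edgeR 4.0.16 in R 4.3.3. Standard errors are the log2 fold change over the square root of F. Normalized counts are counts over the effective library size, times its mean. Limits use 3 counts and cover counting error only. For 1 gene, 2 against 2 libraries cannot give an exact permutation p below 0.333, so each p leans on the spread over all genes. Alternatives in the tool were DESeq2 1.42.0 and limma 3.58.1 (log2 scale, pseudocount 1). Alternatives in the fit were DESeq2's size factors, no scaling beyond library size, filterByExpr, a filter at 1 count, the replicate block, prior count 2 and omission of 1 library at a time. Stricter calls used 0.01 for the adjusted p or required a log2 fold change above 1 in size. The fits were also run on simulated data, with changes placed only in genes above a minimum mean count. That run did not cover genes at 0 or few counts in a group, and its outcome is not given here.

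Members and lists were chosen with earlier results of these data known. LBD genes are those with an MtLBD symbol and NAC genes are the rest. In each family, the called genes (up to 20 in each direction), the 5 most counted and those with a functional name were to be named, which takes in all 10. Keywords for cellulose synthases, laccases and leaf photosynthesis matched 0 genes. No gene lengths were used, so levels are not compared between genes. No sequences of the members were used here.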

Additional observations from a re-analysis of the deposited data

How the results depend on the processing

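Of the 10 members, *MtNAC969*, *MtLBD4* and *AtFEZ-like* passed the threshold under all 12 alternatives that give a gene a value, and *MtFEZ* and *MtLBD18* under 11 (the exceptions were DESeq2 and the fit without overexpressing replicate 2). *MtNACsa* passed under 9, *MtLBD1* under 5, *MtLBD16* under 4, and *MtLBD11* and *MtNAC1* under 0. In the main fit, *AtFEZ-like* reached the filter on low values only through the overexpressing libraries. The log2 fold change of *MtNAC1* turned to 0.0072 with scaling by library size alone, which moved the median of all genes by 0.14, and lay between -0.38 and 0.16 with a library left out (0.16 without wildtype replicate 1). The 2 LBD genes called lower became 0 with DESeq2, with scaling by library size alone, with a filter at 1 count and at an adjusted p under 0.01, 1 with an absolute log2 fold change over 1, and between 0 and 1 with a library left out. The 2 LBD genes called higher became 1 at an adjusted p under 0.01 and between 1 and 2 with a library left out. The 3 NAC genes called higher became 1 at an adjusted p under 0.01 and 2 with DESeq2 (*MtFEZ* lost), under the replicate block and without either overexpressing replicate (*MtNACsa* lost). Over all genes, 4989 were called higher and 4659 lower. An adjusted p under 0.01 left 1909 and 2022, DESeq2 3331 and 3101, an absolute log2 fold change over 1 left 3327 and 3109, and leaving out a library left between 2650 and 4465 higher and between 2903 and 3858 lower. With library size alone, 60.5% of called genes were higher, against 51.7% in the fit with TMM. Apart from fewer samples and stricter thresholds, the cause was not tested. With the replicate number as a block, 3261 genes were higher and 3262 lower, and the LBD genes called lower became 0. Under the block, *MtNACsa* (adjusted p = 0.051), *MtLBD16* (0.054) and *MtLBD1* (0.10) were not called, and no other member changed its call. Deviations of same-numbered replicates had a correlation of -0.02 over genes. This value shows no common shift over the genes as a whole, and it cannot decide whether same-numbered samples shared a batch. With 1 library left in a group, that library is assumed to vary like those of the other group. At this depth *MtLBD1* and *MtLBD11*, with at most 25 counts a library, limit what can be seen.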

Other observations

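Other NAC and LBD genes of the annotation lie outside the rule by their wording, and were picked after their values were seen. *VND7-like* (MtrunA17Chr1g0200561, on chromosome 1), named for the *Arabidopsis* master regulator of xylem vessel differentiation, had 0 counts in both overexpressing libraries, against 4 and 6 counts in wildtype calli. Against 3 counts a library its level was at least 2.15-fold lower in overexpressing calli (edgeR adjusted p = 0.028). The gene reached the filter of 10 counts through its wildtype libraries alone, and the call was lost in 5 of the 9 alternatives that gave it a value, with adjusted p-values between 0.015 and 0.21 over the 9. The 5 were DESeq2, a filter at 1 count, the replicate block and the omission of either overexpressing replicate. *MtVND4*, a vessel gene of the same NAC group, had 0 counts in all 4 libraries. *MtAS2*, an LBD gene named for the *Arabidopsis* leaf polarity factor Asymmetric Leaves, had 0 and 1 count in overexpressing calli and 0 in both wildtype libraries.

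In the members that rose, the wildtype replicates stood in the same order, for *MtLBD4* by few counts (17 and 21). Each of the 5 NAC and LBD genes called higher had more normalized counts in wildtype replicate 2 than in wildtype replicate 1, and so did 7 of the 8 Root Cap genes. Among all genes called higher this held for 64.5% of 4989 genes, among those called lower for 30.3% of 4659, and among all genes tested for 49.6%. Of the 3 members called lower, it held for 1, *MtLBD1*. These shares are a description of 2 libraries, and what sets the wildtype replicates apart was not tested.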
